A study of Mus musculus with 34 samples.

Results

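Clustered replication-dependent histone genes are the multicopy genes that encode the linker histone H1 and the core histones H2A, H2B, H3 and H4. They were taken from the bulk RNA-seq count table of the dorsal hippocampus as every gene whose GENCODE M21 mouse symbol begins with Hist, a cluster number from 1 to 4 and the letter h. The rule used names only and found 70 of 54532 genes, of which 67 are annotated as protein-coding and 3 as pseudogenes. The Hist1 cluster on chromosome 13 holds 56 of them, the Hist2 cluster on chromosome 3 holds 10, the Hist3 cluster on chromosome 11 holds 3, and Hist4 on chromosome 6 is 1 gene. By histone class there are 6 H1, 20 H2A, 19 H2B, 12 H3 and 13 H4 genes.

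The study compared gene expression between trained and untrained mice early in memory consolidation. All 8 bulk libraries came from wild-type adult male C57BL/6J mice, 2 to 3 months old by the study's methods, with no transgene or drug in either group. The 4 homecage (HC) mice stayed in their cages, and the 4 SOR mice were euthanized 1 h after training in spatial object recognition, a task in which a mouse learns where objects stand in an arena. Each library was made from whole dorsal hippocampus, so that neurons, glia and vessels were pooled and a lower value cannot be told apart between fewer cells of a type and less RNA per cell.

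In dividing cells these genes are transcribed in S phase, when new DNA needs histones, under the regulator NPAT, which acts at the histone loci. Their mRNAs have no introns as a rule and end in a conserved stem-loop instead of a poly(A) tail. The stem-loop is held by the stem-loop binding protein SLBP, and the end is cut with the help of the U7 small nuclear ribonucleoprotein. Some members also have longer, polyadenylated transcripts that read past the stem-loop and are made in cells that no longer divide. Replacement histones such as H3.3 and H2A.Z come from single genes elsewhere, carry introns and poly(A) tails, and supply chromatin in neurons outside S phase.

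The 3′ stem-loop is the feature that separates these mRNAs from other mRNAs, so it was looked for in the genome (GRCm38) within 200 bp after each stop codon, on the gene's strand only, as 16 bases that begin with GG, have TT at their seventh and eighth bases, end in CC and form a perfectly paired stem around a loop. It was found in 63 of the 67 members with an annotated stop codon, 21 to 58 bp after it with a median of 30 bp. The same search in 21654 other protein-coding genes found the pattern in 12, or 0.0554%. In 41 members the sequence was the consensus shown first below, and the other 22 held 5 variants. The variants differ from it by paired changes in the stem or by changes in the loop. The stem-loop of each form is printed with its flanks, the 16 bases of stem and loop in capitals, for a member that the later results name where one exists.
Hist1h1a (chr13:23764387-23764416, + strand), the form of 41 members: ccaacGGCTCTTTTCAGAGCCaccaacata
Hist2h2ab (chr3:96220328-96220357, + strand), the form of 9 members: aaaaaGGCTCTTTTAAGAGCCaccaaagtg
Hist1h4d (chr13:23581945-23581974, + strand), the form of 8 members: ccaaaGGCCCTTTTCAGGGCCactaccttc
Hist2h4 (chr3:96262930-96262959, − strand), the form of 2 members: ctaacGGCCCTTTTTAGGGCCaaccacagt
Hist1h4b (chr13:23757361-23757390, + strand), the form of 2 members: caaaaGGTCCTTTTCAGGACCactcactga
Hist2h2ac (chr3:96220409-96220438, − strand), found in 1 member: aaaaaGGCTCTTTTTAGAGCCaccaaatct

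The first variant, with 9 members, stood in H1, H2A, H2B and H3 genes. All 8 genes with the third form, both genes with the fourth and both with the fifth encode H4. The other H4 gene, *Hist1h4a*, is 1 of 4 protein-coding members with no stem-loop of this pattern, beside *Hist1h2an*, *Hist1h3g* and *Hist2h2be*, which says only that these letters are not in that window. Members on which later results turn are also shown for the bases just around the consensus loop, where they differ although the loop is the same.
Hist1h1e (chr13:23621773-23621802, − strand): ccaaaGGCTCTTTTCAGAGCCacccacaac
Hist1h2be (chr13:23585522-23585551, − strand): ccaaaGGCTCTTTTCAGAGCCacccaacag
Hist1h3a (chr13:23761881-23761910, − strand): ccaaaGGCTCTTTTCAGAGCCacacacgat
Hist2h2aa2 (chr3:96239775-96239804, − strand): aaaaaGGCTCTTTTCAGAGCCacccactga

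The 5′ ends were also described, in the RefSeq promoter windows from 250 bp before to 50 bp after each start (GRCm38), which matched 62 members. The octamer motif ATTTGCAT, searched on both strands, was present in 7 of 18 H2A and 7 of 16 H2B promoters and in 0 of the H1, H3 and H4 promoters, beside 1.92% of 26963 other promoters. CCAAT stood in every H1, H2A, H2B and H3 window of that set but in only 3 of 12 H4 windows, against 41.0% of the others. TATAAA stood in 4 of 6 H1, 11 of 18 H2A, 8 of 16 H2B, 4 of 10 H3 and 8 of 12 H4 windows against 15.6% of the others. A match is a description of letters and not a bound site. In 14 places an H2A and an H2B gene lie head to head, with starts 172 to 305 bp apart.

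Before the comparison, the libraries were examined with values that bear on these genes. Total counts lay between 51406011 and 81525977, and the 70 genes held between 0.0527% and 0.0608% of them. The label of hippocampus was matched by its markers, with *Prox1* of dentate granule neurons between 78.6 and 118 CPM (normalized counts scaled by library size after upper-quartile scaling, the level used throughout) and *Snap25* of neurons between 1351 and 1540 CPM. Choroid plexus was carried over unevenly. Its marker *Ttr* ranged from 4.04 to 997 CPM in HC and from 20.8 to 3710 CPM in SOR, the highest value in SOR 1, and all 3 choroid plexus markers were highest in SOR 1. SOR 1 was also the highest library for 25 of the 64 members tested (39.1%), beside 15.1% of all genes tested, and HC 4 was the lowest for 16 (25.0%), beside 6.82%. The 3 choroid plexus markers summed to 3879 CPM in SOR 1, 851 CPM in HC 4 and 61.6 CPM in HC 3. All members summed to 589, 539 and 589 CPM in these libraries, so the 2 sums did not run in the same order. The part of choroid plexus tissue in the members' values was not tested, and values without SOR 1 are given beside the results that turn on it. The labels name no batch.

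The submitters' labels call the RNA poly(A) RNA, whereas the stated library kit works on total RNA after removal of ribosomal RNA, and the levels of these genes are a measurement that bears on this. Members were counted in every library, with between 64 and 66 of the 70 at 1 or more counts, and 62 were above 0 in all 8. In CPM per kilobase of exon, which corrects for gene length, the tested members had a median of 4.88, above the median of 1.95 over all 22018 genes tested, and 48 of the 64 exceeded that median. The summed level of all members was 549, 551, 589 and 539 CPM in HC 1 to HC 4, and 589, 545, 542 and 547 CPM in SOR 1 to SOR 4. The groups overlapped, with means of 557 ± 21.8 and 556 ± 22.3 CPM (SD, n = 4 each).

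RNAs without a poly(A) tail in their mature form were followed as a list, and some were abundant in these libraries. *Rn7sk*, the 7SK RNA that holds back the elongation factor P-TEFb, stood between 14312 and 19985 CPM over the 8 libraries. *Rn7s1* and *Rn7s2*, copies of the signal recognition particle RNA, stood at 53069 ± 11383 and 53068 ± 11383 CPM in HC, *Rpph1* of RNase P at 1468 ± 233 CPM, and *Rmrp* of RNase MRP at 371 ± 52.9 CPM (SD, n = 4). *Rn7s1* and *Rn7s2* were nearly equal in each library, as at 66359 and 66357 CPM in HC 1. Reads may be shared between these copies, so the 2 values may not be separate measurements. Of the 12 such RNAs listed, *Rny1*, *Rny3*, *Rnu11* and *Snord118* had 0 counts in every library, *Vaultrc5* and *Rnu12* did not exceed 0.0502 CPM, and *Terc* was at 0.247 ± 0.0833 CPM in HC. None of the 6 that were tested passed at an adjusted p under 0.05 between SOR and HC (edgeR quasi-likelihood test).

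Gene models of members differ in where they end, and so in the RNA they can count. In 12 members the annotation stops at the stop codon, in 4 before or inside the stem-loop, in 20 within 60 bp after it, and in 27 more than 60 bp after it. The 36 members whose model has no long extension past the stem-loop summed to 202 ± 5.82 CPM in HC and 205 ± 16.1 CPM in SOR, which is 36.5% of the level of all members. The 27 extended models held 59.8%. Both shares are of CPM without correction for length, and the extended models are longer as a rule. They therefore do not compare the 2 sets per length. A poly(A) signal, AATAAA or ATTAAA on the gene's strand, lay in the last 40 bp of the model in 13 of those 27, in 1 of the 20 that end shortly after the loop, in 0 of the 16 that end earlier, and in 2 of the members without a loop, *Hist1h4a* and *Hist2h2be*. The 16 members with that signal summed to 30.8% of the total. Gene-level counts do not separate a stem-loop transcript from an extended one of the same gene, and this share is therefore not a share of polyadenylated RNA.

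Tested members spanned 0.365 to 79.7 CPM per kb of exon, and a few held most of the signal. The 10 most abundant members held 57.5% of the summed CPM and the 20 most abundant 77.8%. *Hist1h4d*, an H4 gene (chr13:23581598-23582735), was first by CPM, with 65.0, 65.1, 73.5 and 61.9 CPM in HC and 63.3, 63.2, 63.6 and 59.8 CPM in SOR, or 11.6% of the members' total. Per kilobase of exon the order was *Hist2h2aa2* (H2A) at 79.7, *Hist1h4h* at 56.7, *Hist1h4d* at 56.6, *Hist2h2bb* (H2B) at 38.9, *Hist1h4m* at 38.3, *Hist1h2bc* (H2B) at 32.3, *Hist1h4k* at 29.1, *Hist1h4c* at 28.1, *Hist1h4n* at 27.2 and *Hist1h4f* at 24.6 CPM per kb. Of these neighbours, *Hist1h4h* and *Hist1h4d* differ by far less than their spread over libraries, as do *Hist2h2bb* and *Hist1h4m*. With coding length in place of exon length, an alternative added after seeing the data, 7 of these 10 were still among the 10 highest.

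H4 genes stood highest as a class, with a median of 24.6 CPM per kb over 13 genes, whereas the medians of the other classes were 4.33 for H1, 2.23 for H2A, 3.10 for H2B and 4.14 for H3. H4 also held the largest share of the summed CPM at 38.4%, followed by H2A at 21.7%, H2B at 19.3%, H1 at 11.8% and H3 at 8.85%. In the H3 class, *Hist1h3e* was highest at 16.5 CPM per kb, and in the Hist3 and Hist4 groups *Hist3h2a* and *Hist4h4* were highest at 19.1 and 2.72 CPM per kb. The exons of *Hist3h2a* overlap those of *Trim17* on the same strand by 708 bp, and its counts may hold reads of both.

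**Figure D1:**
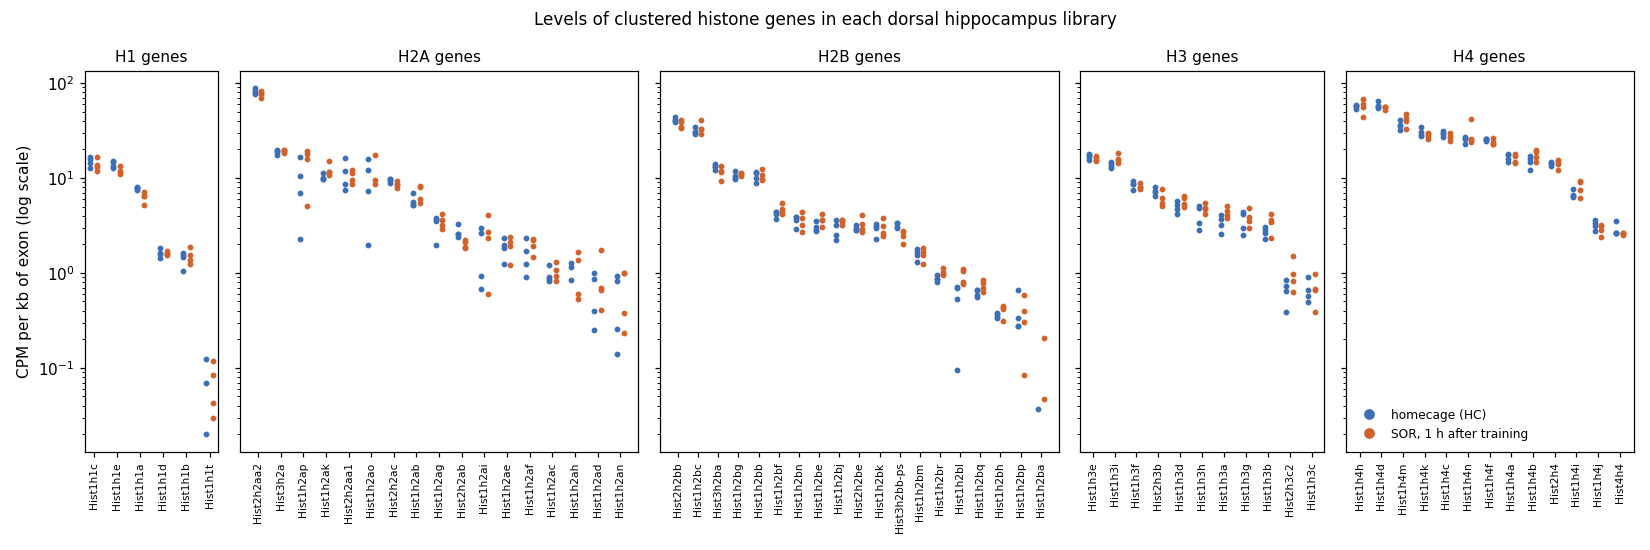
Each point is 1 library, HC in blue and SOR in orange, with CPM per kb of exon on a log axis and genes in descending order of their mean within each histone class; values of 0 and genes with a mean of 0.01 CPM or less are not drawn. The H4 panel lies highest, with *Hist1h4h* and *Hist1h4d* near 57 CPM per kb, while *Hist2h2aa2* stands alone above the other H2A genes at 79.7.

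Members at or near 0 include genes known from the germ line. *Hist1h2aa*, an H2A gene of testis, had 0 counts in all 8 libraries, as did the pseudogene *Hist1h2aj*. The H3 gene *Hist2h3c1* also had 0 counts, but 0% of its words are unique and its exons lie wholly within those of *Gm20634* on the same strand, so its reads may have been given to other genes. *Hist1h2ba*, which encodes the testis H2B and lies head to head with *Hist1h2aa*, did not exceed 0.0786 CPM. The testis linker histone gene *Hist1h1t* lay between 0 and 0.112 CPM. With the pseudogene *Hist1h2al*, these 6 had too few counts to be tested. A count of 0 allows up to 3 counts per library, for counting error only, which does not cover reads given to a copy. The head-to-head partners were not equal in level. *Hist1h2bc* stood at 98.8 CPM per kb of coding length and its partner *Hist1h2ac* at 6.30, a ratio of 15.7, whereas *Hist1h2ap* stood at 14.6 and its partner *Hist1h2br* at 5.21. Over the 11 pairs with both genes measured on that scale, the H2B gene was higher in 6 and the H2A gene in 5. Per kilobase of exon the counts were 4 and 7, and the ratio of *Hist1h2bc* to *Hist1h2ac* was 32.7, so the order within pairs depends on the length used.

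Many members are near-copies, and a read from them can be given to several genes. Of all 31-base words in a member's transcripts, a median of 41.3% occur in no other gene of the annotation, and 11 members have under 10% of such words. *Hist1h2ao* and *Hist1h2ap* share 93.8% of their words. *Hist1h2ao* was at 3.49, 0.941, 7.69 and 5.76 CPM in HC and at 4.17, 0, 4.59 and 8.43 CPM in SOR. *Hist1h2ap* was at 5.10, 7.92, 1.11 and 3.38 CPM in HC and at 8.66, 9.28, 7.63 and 2.42 CPM in SOR. Where 1 of the 2 was low the other was high, as in HC 3 and SOR 2, and their sum was much steadier, with a pooled coefficient of variation of 11.2% against 72.8% and 52.8% for the single genes.

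*Hist2h2aa1* and *Hist2h2aa2*, which lie in a mirrored stretch of the Hist2 cluster and share all words of the smaller one, were given 6.30 and 42.1 CPM on average, and their sum varied by 3.90%. The exons of *Hist2h2aa2* are also covered by an antisense gene at 4.98 CPM. *Hist2h2aa1* shares 529 bp of exon with *Gm20634*, a transcript on the same strand at 8.58 CPM, so that reads could also go to a gene outside the pair. The split between such copies is therefore uncertain, and 20 members fall into 7 groups linked by pairs that share at least 80% of the words of the smaller gene. Other pairs within a group can share less. The 9 tested members with under 10% unique words had a median coefficient of variation of 19.7% and the 25 with 50% or more had 12.04%, at median levels of 4.38 and 7.78 CPM.

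**Figure D2:**
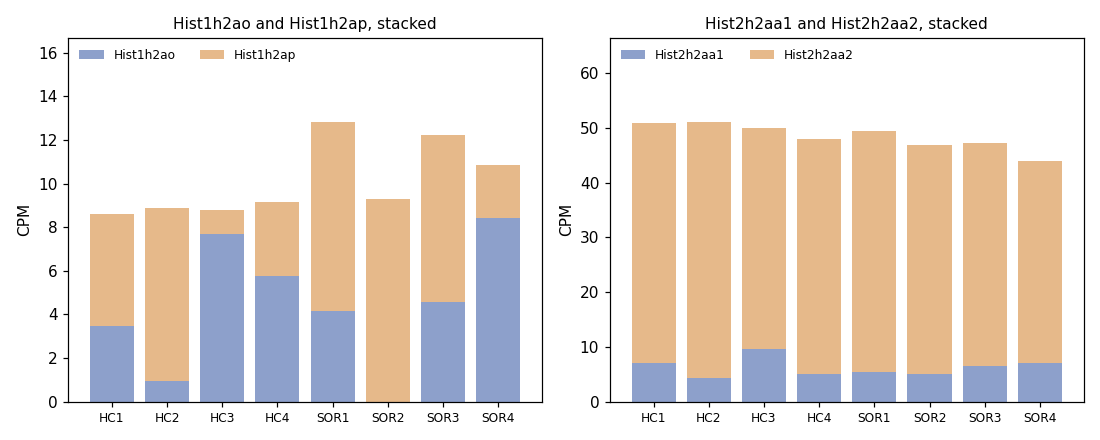
Stacked bars give the CPM of both genes of a near-identical pair in each of the 8 libraries, *Hist1h2ao* and *Hist1h2ap* on the left and *Hist2h2aa1* and *Hist2h2aa2* on the right. The division within the left pair changes from library to library, including 0 CPM for *Hist1h2ao* in SOR 2, while bar heights lie between 8.59 and 12.8 CPM.

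SOR was then compared with HC to see whether the level of any member differed 1 h after training. The threshold for a call was that of the study, 0.05 for the adjusted p together with 1.4 for the fold. The study's bulk analysis, which also included RUVs, reported many more genes at this threshold than the fit used here. None of the 64 members tested was called (edgeR quasi-likelihood test, Benjamini-Hochberg adjustment over 22018 genes), beside 38 of all genes, or 0.173%. Without the fold-change threshold the count was also 0, beside 68 genes (0.309%), and the smallest adjusted p among members was 0.335. At an unadjusted p under 0.05 there were 6 members of 64, a share near the 10.1% of all genes. Of these, 4 were lower in SOR, beside 5.51% of all genes, and 2 were higher, beside 4.54%. The 6 became 3 without SOR 1, 3 without HC 4 and 10 without SOR 4, and the shares over all genes in those fits are not given here. The values of the 4 SOR libraries lay beyond all 4 HC values in 5 members, again near the 6.94% of all genes, with 3 lower (3.96% of all genes) and 2 higher (2.98%).

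The median log2 fold change was 0.06 over the 64 members and −0.02 over all genes, and 40 of the 64 (62.5%) were above 0 against 43.8% of all genes. Without SOR 1 the median was 0.02 and 53.1% were above 0, against 45.2% of all genes. In the 31 members whose mean level reached 5 CPM the median was −0.01, with 15 above 0 and 16 below, while 10 of the 11 tested members under 1 CPM were above 0, with a median of 0.34 and a median SE of 0.43. In 30 of the 64 the 95% interval of the change lay entirely within a fold of 1.4 in either direction, beside 12974 of the 22018 genes tested, so members were bounded less often than genes at large. The best-counted member, *Hist1h4d*, had an interval from −0.21 to 0.03 on the log2 scale, and *Hist3h2a* one from −0.08 to 0.16.

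**Figure D3:**
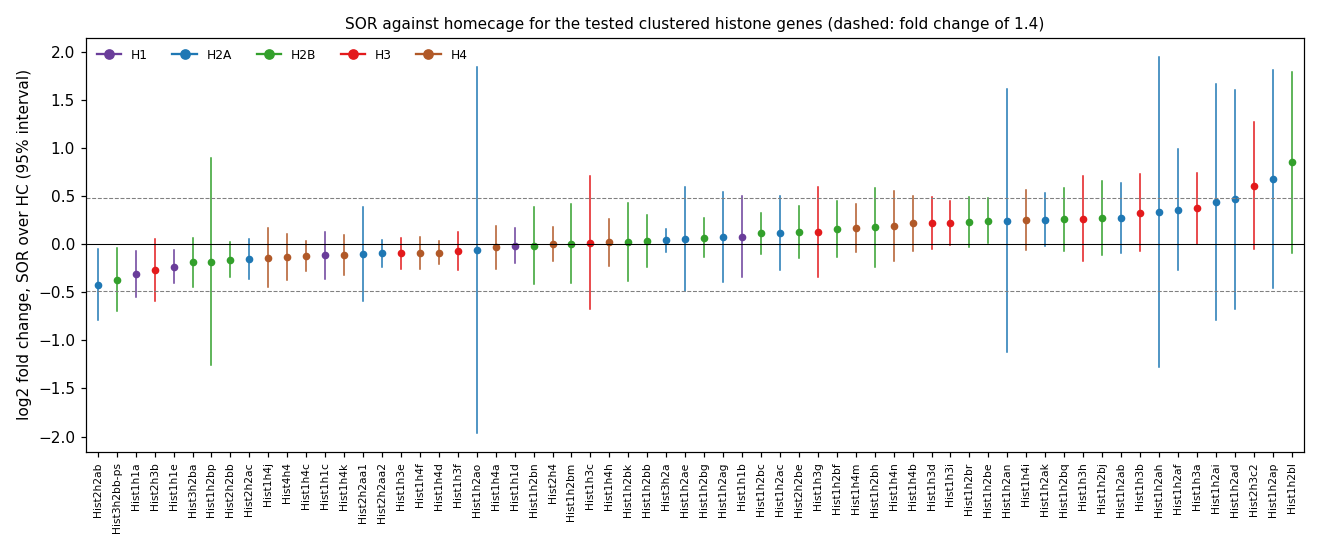
The log2 fold change of SOR over HC is drawn with its 95% interval for each of the 64 tested members in ascending order, coloured by histone class, with dashed lines at a fold of 1.4. Values run from −0.42 for *Hist2h2ab* to 0.85 for *Hist1h2bl*, and the widest interval is that of *Hist1h2ao*, which has a near-identical copy.

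The most abundant members were then compared. *Hist2h2aa2*, an H2A gene (chr3:96239749-96240276), was at 43.8, 46.7, 40.4 and 42.9 CPM in HC and at 43.9, 41.7, 40.6 and 36.8 CPM in SOR. *Hist1h4h* was at 25.0, 27.2, 26.9 and 26.7 CPM in HC and at 32.1, 26.2, 28.3 and 20.8 CPM in SOR, where SOR 1 and SOR 4 lay on either side of all HC values. *Hist2h2bb*, whose exons lie opposite an antisense gene at 11.9 CPM, was at 16.7, 14.8, 15.7 and 15.3 CPM in HC and at 13.03, 14.7, 15.5 and 12.7 CPM in SOR. The groups overlapped in each of the 3, with log2 fold changes of −0.09 ± 0.06, 0.02 ± 0.11 and −0.16 ± 0.08. For *Hist1h2bc* the log2 fold change was 0.12 ± 0.10 and became 0.01 without SOR 1, which stood at 46.8 CPM against 33.2 to 39.6 CPM in the other 7 libraries. The other H4 genes among the 10 highest per kilobase lay between −0.13 ± 0.07 for *Hist1h4c* and 0.19 ± 0.16 for *Hist1h4n*, and the latter became −0.03 without SOR 1. For *Hist1h4m* the log2 fold change was 0.17 ± 0.11, and 0.09 without SOR 1. None of the 10 had an unadjusted p under 0.05. *Hist1h3e* was at 14.2 ± 0.884 CPM in HC and 13.3 ± 0.673 CPM in SOR, and *Hist4h4* at 8.14 ± 1.25 and 7.42 ± 0.211 CPM.

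Of the 5 linker histone genes tested, 4 had a log2 fold change below 0, none past the adjusted threshold. H1 binds DNA between nucleosomes, and *Hist1h1a* to *Hist1h1e* encode its somatic subtypes. *Hist1h1a* (chr13:23763666-23764406) was at 5.79, 5.59, 5.91 and 5.84 CPM in HC and at 3.86, 4.77, 4.78 and 5.26 CPM in SOR. All 4 SOR values lay below all HC values, and the HC values were closer together than the SOR values. The log2 fold change was −0.31 ± 0.11 (SE), with an unadjusted p of 0.0166 and an adjusted p of 0.369 (edgeR), and an exact permutation test gave p = 0.0286, the smallest that 4 against 4 samples allow. Without SOR 1, the lowest SOR library, the log2 fold change was −0.23.

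*Hist1h1e* (chr13:23620629-23622558), the most abundant H1 gene by CPM, was at 24.5, 25.7, 28.9 and 28.5 CPM in HC and at 21.02, 22.7, 22.4 and 25.5 CPM in SOR. The groups overlapped through SOR 4 and HC 1, and the log2 fold change was −0.23 ± 0.08, with an unadjusted p of 0.0124 and an adjusted p of 0.335 (edgeR). Over the alternatives the adjusted p lay between 0.110 and 0.610 for *Hist1h1e* and between 0.184 and 0.595 for *Hist1h1a*. The other H1 genes did not pass at an unadjusted p under 0.05. *Hist1h1c* was at 23.2 ± 2.52 CPM in HC and 21.4 ± 3.15 CPM in SOR, *Hist1h1d* at 12.05 ± 1.16 and 11.9 ± 0.430 CPM, and *Hist1h1b* at 1.05 ± 0.190 and 1.12 ± 0.200 CPM (SD, n = 4 each). The 6 H1 genes summed to 69.0 ± 5.58 CPM in HC and 62.1 ± 4.79 CPM in SOR, with groups that overlapped.

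*Hist1h2be*, an H2B gene (chr13:23583670-23621124), ran the other way and shares 496 bp of exon with *Hist1h1e* on the same strand. It was at 12.5, 12.4, 15.6 and 13.4 CPM in HC and at 18.4, 16.1, 13.4 and 16.1 CPM in SOR. SOR 1 was highest and SOR 3 fell among the HC values. The log2 fold change was 0.25 ± 0.11, with an unadjusted p of 0.0436 and an adjusted p of 0.481 (edgeR), and it was 0.17 without SOR 1. Reads in the shared exon could be given to either gene. The sum of both was 40.4 ± 3.47 CPM in HC and 38.9 ± 2.36 CPM in SOR (SD, n = 4 each), with groups that overlapped. Opposite changes draw such a sum together whatever their source, so it cannot tell how reads were divided, which was not tested.

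Among core histones, 2 low-level members were lower in every SOR library. *Hist2h2ab*, an H2A gene (chr3:96219865-96220308), was at 1.47, 1.14, 1.05 and 1.13 CPM in HC and at 0.820, 0.991, 0.8291 and 0.943 CPM in SOR. The log2 fold change was −0.42 ± 0.17, with an unadjusted p of 0.0283 and an adjusted p of 0.432 (edgeR). *Hist3h2bb-ps*, a processed H2B pseudogene (chr11:58954048-58954512) that lies head to head with *Hist3h2a*, was at 1.56, 1.43, 1.39 and 1.57 CPM in HC and at 0.941, 1.26, 1.27 and 1.14 CPM in SOR. The difference on the log2 scale was −0.37 ± 0.15 (unadjusted p = 0.0299 and adjusted p = 0.439, edgeR), while its partner *Hist3h2a* stood at 40.4 ± 2.40 and 41.5 ± 1.45 CPM in HC and SOR.

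Besides *Hist1h2be*, the members with an unadjusted p under 0.05 or separate groups whose values were higher in SOR were 3 genes of the Hist1 cluster. *Hist1h3a*, an H3 gene (chr13:23761853-23762386), was at 1.71, 2.16, 1.96 and 1.37 CPM in HC and at 2.41, 2.74, 2.18 and 2.00 CPM in SOR, with overlap between SOR 4 and HC 2. The log2 fold change was 0.38 ± 0.17 (unadjusted p = 0.0472 and adjusted p = 0.490, edgeR). *Hist1h2br*, an H2B gene, was at 1.93, 1.92, 2.09 and 1.78 CPM in HC and at 2.49, 2.13, 2.27 and 2.16 CPM in SOR, with no overlap and a log2 fold change of 0.23 ± 0.12. It shares 98.3% of the words of *Hist1h2bq*, the smaller of the 2, and their sum did overlap between groups, at 2.95 to 3.43 CPM in HC and 3.40 to 4.18 CPM in SOR. *Hist1h2bl*, also H2B, was at 0.0363, 0.267, 0.268 and 0.201 CPM in HC and at 0.309, 0.414, 0.399 and 0.295 CPM in SOR, on only 2.10 to 25.7 counts per library. Its log2 fold change of 0.85 ± 0.43 was the largest among members and had an adjusted p of 0.543 (edgeR). It became 0.54 without HC 1, the lowest library, and 11.4% of the gene's words are unique.

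**Figure D4:**
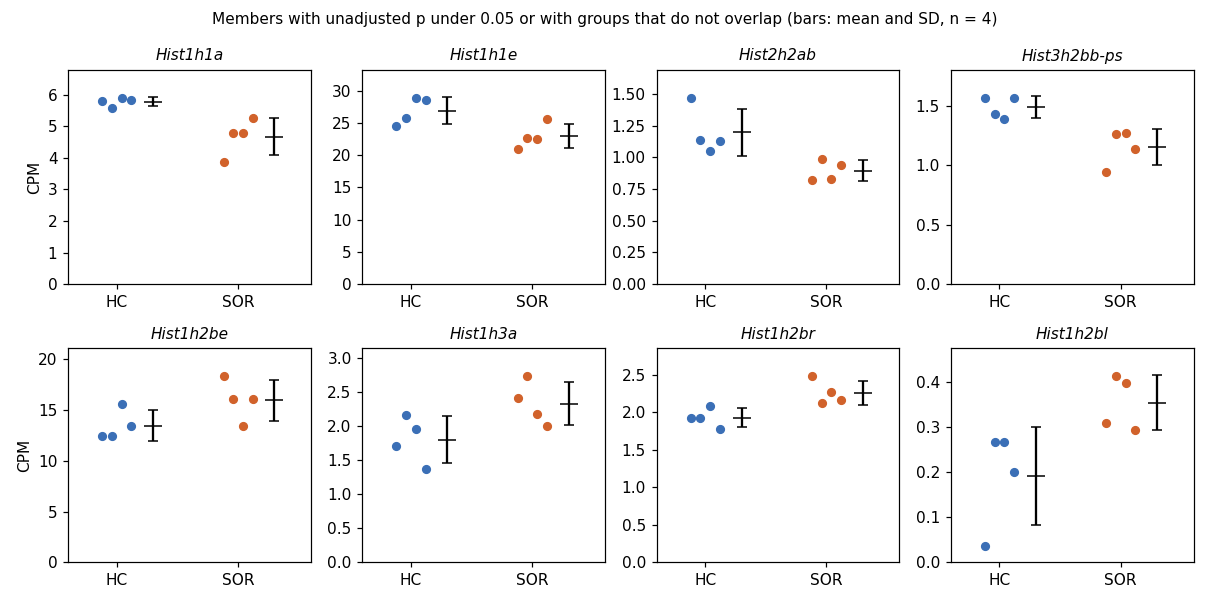
CPM in each of the 8 libraries for the 6 members with an unadjusted p under 0.05 and the 2 others whose groups do not overlap, with the mean and SD of 4 libraries beside the points and axes from 0. *Hist1h1a*, *Hist2h2ab* and *Hist3h2bb-ps* lie lower in every SOR library and *Hist1h2br* and *Hist1h2bl* higher, while *Hist1h1e*, *Hist1h2be* and *Hist1h3a* overlap.

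The near-identical copies were therefore also counted together, as an alternative added after seeing the data. This left 57 units, of which 53 were tested and none was called, with 4 higher and 4 lower at an unadjusted p under 0.05 and a smallest adjusted p of 0.259. In the fit of single genes, 4.54% of all genes were higher and 5.51% lower at that level. The shares over all genes in the summed fit are not given here. *Hist1h2ao* and *Hist1h2ap* together were at 8.84 ± 0.220 CPM in HC and 11.3 ± 1.58 CPM in SOR, with no overlap between groups. Among single genes, 2.98% of all those tested lay apart in that direction. Their joint log2 fold change was 0.35 ± 0.10, with an unadjusted p of 0.00586 and an adjusted p of 0.259 (edgeR). *Hist1h3h* and *Hist1h3i* together had a log2 fold change of 0.23 ± 0.10 with an adjusted p of 0.479. The joint change of *Hist1h4m* and *Hist1h4n* was 0.18 ± 0.12, and *Hist1h4n* alone stood at 17.8 CPM in SOR 1 and at 10.2 to 11.1 CPM in the other SOR libraries.

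By cluster, the Hist2 genes were the only 1 of the 4 sums whose groups did not overlap. The 10 Hist2 genes summed to 109, 105, 107 and 105 CPM in HC and to 99.5, 101, 104 and 102 CPM in SOR, with means of 107 ± 1.68 and 102 ± 1.74 CPM (SD, n = 4). As a score over members, the sum was not tested. On unscaled library totals the ranges were 103 to 110 and 99.8 to 103 CPM and overlapped. On TMM-scaled sizes they were 104.0 to 108.6 and 100.5 to 103.6 CPM and stayed apart. Without *Hist2h2aa1* and *Hist2h2aa2* the ranges were 54.2 to 57.9 and 50.2 to 58.6 CPM and overlapped. The Hist1 genes summed to 392 ± 18.2 CPM in HC and 397 ± 23.9 CPM in SOR, where SOR 1 stood alone at 433 CPM. The Hist3 genes summed to 49.9 ± 2.35 and 49.8 ± 1.57 CPM. The median log2 fold change was 0.12 over 51 tested Hist1 genes and −0.10 over 9 tested Hist2 genes, and these became 0.06 and −0.11 without SOR 1. By class it was −0.12 for H1, 0.12 for H2A, 0.09 for H2B, 0.22 for H3 and −0.03 for H4, and without SOR 1 these were −0.12, 0.05, 0.06, 0.15 and −0.09.

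**Figure D5:**
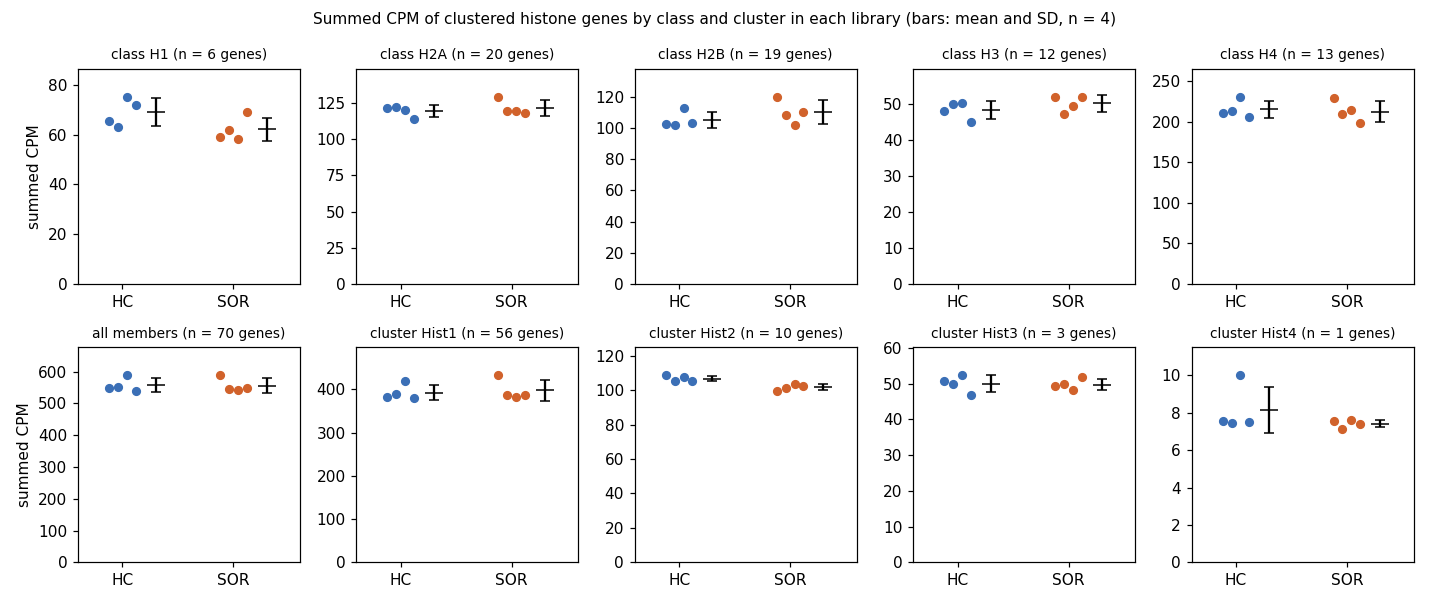
Summed CPM of the members of each histone class (top) and of all members and each gene cluster (bottom) in every library, HC in blue and SOR in orange, with the mean and SD of 4 libraries beside the points and axes from 0. The total is 557 CPM in HC and 556 CPM in SOR, the Hist2 points separate by a few CPM, and SOR 1 is the highest point of the Hist1 panel.

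Genes that act with this group were followed as lists. Of 19 genes for the transcription, 3′ processing and turnover of histone mRNA, all were tested, 0 passed at an adjusted p under 0.05, and the median log2 fold change was 0.04. *Slbp*, whose product binds the stem-loop, was at 16.4 ± 1.79 CPM in HC and 15.1 ± 0.622 CPM in SOR. *Npat*, the regulator of the histone loci, was at 39.2 ± 0.641 and 38.2 ± 2.58 CPM. The 1 gene of this list with an unadjusted p under 0.05 was *Hinfp*, which encodes a factor of H4 promoters, at 21.4 ± 1.69 CPM in HC and 24.7 ± 1.23 CPM in SOR, with no overlap, a log2 fold change of 0.21 ± 0.07 and an adjusted p of 0.335 (edgeR). *Cstf2*, the highest of the list by CPM, was at 91.5 ± 3.41 and 94.3 ± 5.61 CPM.

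S-phase and proliferation genes were counted at low to moderate levels. *Mki67*, a marker of cycling cells, was at 5.60 ± 0.536 CPM in HC and 6.04 ± 0.720 CPM in SOR, or 0.579 CPM per kb over all libraries, and *Tyms* was the highest of the list at 42.6 ± 2.50 and 40.2 ± 6.44 CPM. None of the 18 genes passed at an unadjusted p under 0.05, and their median log2 fold change was −0.01. Of the 13 histone chaperone genes, 0 passed at an adjusted p under 0.05 and 2 were lower at an unadjusted p under 0.05. These were *Ubn1* of the HIRA complex, at 81.99 ± 19.9 CPM in HC and 57.4 ± 2.09 CPM in SOR with overlapping groups, a log2 fold change of −0.51 and an adjusted p of 0.233, and *Chaf1a* of the replication-coupled CAF-1 complex, at 5.23 ± 0.892 and 4.21 ± 0.517 CPM with an adjusted p of 0.495 (edgeR). *Ubn1* did pass both thresholds under other settings, with an adjusted p of 0.0347, 0.0403 and 2.41e-06 with 1, 2 and 3 RUVs factors, 0.0240 with DESeq2, 0.0498 with the likelihood ratio test and 0.0248 without HC 3, and its adjusted p reached 0.502 at the other end of the alternatives. The highest of that list was *Atrx* at 447 ± 13.6 and 426 ± 58.8 CPM.

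Replacement histone genes were set beside the clustered ones. *H3f3b*, which encodes H3.3, was at 245 ± 1.84 CPM in HC and 219 ± 10.1 CPM in SOR, and the second H3.3 gene, *H3f3a*, was at 149 ± 2.69 and 147 ± 9.41 CPM. All 12 clustered H3 genes together gave 48.4 ± 2.48 and 50.1 ± 2.30 CPM. These CPM are not corrected for length, and *H3f3b* has 2976 bp of exon against 411 to 1825 bp in the clustered H3 genes. Per kilobase of exon *H3f3b* stood at 78.1 CPM and the highest clustered H3 gene, *Hist1h3e*, at 16.5. The latter is 1 gene of the 12, and their sum on that scale is not given here. For *H3f3b* the groups did not overlap, at 244 to 247 CPM in HC and 205 to 229 CPM in SOR, and the log2 fold change was −0.16 ± 0.04, with an unadjusted p of 0.00216 and an adjusted p of 0.173 (edgeR). *H2afz*, which encodes H2A.Z, was at 48.6 ± 2.16 and 47.3 ± 1.29 CPM. Of the 11 replacement histone genes 0 passed at an adjusted p under 0.05. The log2 fold change was below 0 in 8, beside 12368 of the 22018 genes tested, and its median was −0.07. Groups did not overlap in 2 of the 11, *H3f3b* among them, both lower in SOR, beside 3.96% of all genes.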

How the data were processed

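Bulk RNA-seq of the dorsal hippocampus of 4 HC and 4 SOR mice was used. The authors ran bcbio-nextgen, which used STAR for alignment to mm10 and featureCounts for gene counts. The deposited values are nevertheless estimated counts per gene summarized by tximport, not normalized, and 98.7% of the members' values above 0 are not whole numbers. The quantifier behind tximport and the use of strand in counting are not given in the sources used here. No column of per-sample values was left unused. No pair of replicates agreed within sampling noise, with a chi-square per degree of freedom of 11.97 to 53.8.

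Counts were rounded, filtered with filterByExpr, scaled by upper quartile and tested with the quasi-likelihood test of edgeR 4.0.16 (R 4.3.3) over 22018 genes. Standard errors come from the log2 fold change and F, and intervals are at 95%. Exact permutation tests used log2 of CPM plus 0.01 over 70 assignments of the samples. Gene models are GENCODE M21 (54495 of 54532 genes matched) and sequences are RefSeq GRCm38. The RUVs step of the study is an alternative here, since its number of factors is not given.

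The members and lists were chosen with earlier results of these data known. Members were named if they had an unadjusted p under 0.05, were among the 10 highest per kilobase, were highest in a class or cluster, encoded H1 in the Hist1 cluster, were at or near 0, or had groups that did not overlap. From the other lists, the highest gene, those past the test and *Slbp*, *Npat*, *Mki67*, *H3f3b*, *H2afz* and *Rn7sk* were named, and others with an unadjusted p under 0.05 were added after their values were seen, as were members of near-identical or head-to-head pairs. As alternatives, scaling by TMM, RLE or library size was tried, as were other filters, the likelihood ratio test, DESeq2 1.42.0, limma-voom of limma 3.58.1, 1 to 3 RUVs factors, a replicate block, counts not rounded and each sample left out. The fit was also run on simulated counts with the same dispersion for every gene and changes only in well-counted genes. No reads were shared between copies there, so that run does not cover low or near-identical members, and its outcome is not given here. Tables used Python 3.11.15, pandas 2.3.3, numpy 2.4.6 and scipy 1.17.1, and figures matplotlib 3.10.9.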

Additional observations from a re-analysis of the deposited data

Results flagged for a closer look

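In 82 groups of 4 libraries, formed from named genes and from sums, 8 had a library that stood far from the other 3, where chance gives about 1 in 20. SOR 1 was the high library in 4 of these, at 17.8 CPM for *Hist1h4n*, 589 CPM for the sum of all members, 129 CPM for the sum of H2A genes and 433 CPM for the sum of Hist1 genes. HC 3 was the high library in 3, at 10.0 CPM for *Hist4h4*, which is also the sum of the Hist4 group at 10.0 CPM, and at 113 CPM for the sum of H2B genes. SOR 4 was the low library for *Hist1h4d*, at 59.8 CPM. These sums share genes and the flags are not independent of each other. SOR 1 also had the most choroid plexus RNA (*Ttr* at 3710 CPM), whereas the choroid plexus markers summed to only 61.6 CPM in HC 3. The part of that tissue in these values was not tested.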

How the results depend on the processing

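No member was called under any alternative run. The number of members with an unadjusted p under 0.05 lay between 4 and 8 with all samples and between 3 and 10 when 1 sample was left out, against 6, with 3 without HC 4, 3 without SOR 1 and 10 without SOR 4. The shares over all genes under these alternatives are not given here. The median log2 fold change of members ranged from 0.05 to 0.09 with all samples, was 0.02 with near-identical members summed, and lay from 0.02 to 0.09 with 1 sample left out. The summed level without the most abundant member, *Hist1h4d*, was 491 CPM in HC and 494 CPM in SOR. With 1 sample left out, the sum of all members was 546 to 563 CPM in HC and 545 to 561 CPM in SOR. With coding length in place of exon length, 7 of the 10 highest members per kilobase remained.

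Replicate numbers are shared between groups, and the samples were not treated as pairs. Same-numbered libraries correlated between −0.099 and 0.151 in their deviations from group means, and other pairs of libraries between −0.307 and 0.234. So few correlations cannot decide whether samples were paired. With the replicate block, 4 members had an unadjusted p under 0.05, 0 were called and the median was 0.06. The share over all genes in that fit is also not given here. *H3f3b*, which is no member, passed at an adjusted p under 0.05 with 2 and 3 RUVs factors and with DESeq2, at log2 fold changes of −0.15, −0.15 and −0.14. *Ubn1* was called with 1 to 3 RUVs factors, DESeq2, the likelihood ratio test and without HC 3. Signs turned under some alternatives for *Hist1h4h* (6 of 22), *Hist1h1d* (4), *Hist1h1b* (2), *Hist1h4n* (1 of 21) and *Hist3h2a* (1 of 22). Limits are the few counts of low members, reads shared between near-identical genes, and 4 mice per group.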

Other observations

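Scatter between libraries differed within the group. The pooled coefficient of variation was 4.84% for *Hist3h2a*, 4.92% for *Hist1h4f* and 5.80% for *Hist1h4d*, and 61.0% for *Hist1h2ah* and 67.5% for *Hist1h2an*, which are low and share most of their sequence with other H2A genes. Together, the 7 H2A genes that include these varied by 14.8% and stood at 3.80 ± 0.523 CPM in HC and 4.59 ± 0.708 CPM in SOR, with an adjusted p of 0.566 (edgeR). *Hist2h2ab* and *Hist2h2ac*, whose 3′ stem-loops lie on opposite strands within the same short stretch of chromosome 3, had log2 fold changes of −0.42 and −0.15.

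Cell type markers gave a further description of the libraries in which the histone values stand. Oligodendrocyte markers summed to 3724 ± 170 CPM in HC and 3315 ± 325 CPM in SOR, with 1 of 3 at an unadjusted p under 0.05, and 2 of 3 microglia markers were lower at that level. Of the 2 endothelial markers, *Cldn5* was at 27.7 ± 3.02 and 22.4 ± 0.734 CPM, with groups that did not overlap, an unadjusted p of 0.00287 and an adjusted p of 0.199 (edgeR). The other, *Flt1*, went the opposite way, with a log2 fold change of 0.08. The red blood cell markers summed to 78.4 ± 9.99 and 103 ± 27.5 CPM, and 1 of 2, *Hba-a1*, had an unadjusted p under 0.05 (0.0380, adjusted 0.463). Under some RUVs settings or DESeq2, *Cldn5*, *P2ry12*, *Sox11*, *Folr1* and *Hbb-bs* passed at an adjusted p under 0.05. Neuron markers summed to 2123 ± 123 and 2100 ± 68.1 CPM. Of the 5 progenitor and neuroblast markers, 1 had an unadjusted p under 0.05, *Sox11* at 30.96 ± 1.65 and 35.6 ± 2.56 CPM, with an adjusted p of 0.304 (edgeR). *Sox11* ran against its list, as the other 4 had a log2 fold change below 0 and the median over the 5 was −0.27. The part of cell composition in the members' values was not tested.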
